A study of Mus musculus with 16 samples.

Results

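The change between 3 and 6 h of E1A induction was measured in mouse embryonic stem cells by setting 2 arrays at 6 h against 2 arrays at 3 h, which makes 4 of the 16 arrays of the series. A further 2 arrays at 0 h were set beside them, so that each probe that moved after 3 h could be placed by what it had done before. Total RNA was labelled with biotin and hybridised to single-colour Illumina bead arrays, 1 array per sample. The cells had a mixed C57BL/6, C3H and CD1 background. Induced cells were harvested at 0, 3, 6, 9, 12, 24 and 48 h, and a cherry control at 48 h, on 2 arrays each. The labels list that control under E1A induction too and do not state which construct its cells held, and it is named the 48 h control here. The inducing agent and the construct were not given in the sources used here. Nothing in the labels says that the 2 arrays of a time came from separate cultures, so the p-values reflect the spread among these samples alone, and that spread may be technical.

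Embryonic stem cells keep the pluripotent state through a network of transcription factors, among them Pou5f1, Sox2, Nanog, Esrrb and Klf4, and through signals such as Fgf, Nodal and Bmp. E1A is an adenoviral early protein that has no DNA-binding domain of its own and acts through host proteins, chiefly the retinoblastoma family, which holds back E2F factors, and the p300 and CBP acetyltransferases, which are coactivators. The title of the series names Sox2-independent steps of reprogramming.

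Calls rest on limma's test with an adjusted p (Benjamini-Hochberg, over all 13974 tested probes) under 0.05. Levels are normalized log2 intensities, and a log2 difference of 1 is a doubling. Between 3 and 6 h, 219 probes rose (1.57% of those tested) and 138 fell (0.988%), together 357 probes or 2.55%. Of these, 332 carried a gene name and stood for 305 genes. Most steps were small: the median was 0.54 for the rising and -0.53 for the falling probes on the log2 scale, and 9 probes (0.0644% of those tested) moved by at least 1. For all 357 the arrays of one time lay outside the range of the other, which held for 44.7% of the tested probes. The number of calls depended on each of these 4 arrays, since leaving out 6 h replicate 1 gave 71 calls, 6 h replicate 2 gave 104, 3 h replicate 1 gave 161 and 3 h replicate 2 gave 74.

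Each changed probe was placed by its own 3 h against 0 h result. From 0 to 3 h, 203 probes were called (1.45% of those tested), 123 higher (0.88%) and 80 lower (0.572%). A later step was said to continue when the earlier call had the same sign, to turn back when it had the opposite sign, and to start when there was no earlier call. By this rule 18 probes continued (14 rising, 4 falling), 322 started (197 rising, 125 falling) and 17 turned back (8 rising, 9 falling). The remaining 168 of the 203 early calls had no second call, and 131 of those were still called at 6 h against 0 h with their first sign. Both steps use the 3 h arrays, and an error in those arrays pushes the steps in opposite directions, which favours turning back over continuing.

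Absence of an earlier call is not absence of an earlier change. Among the 197 rising probes that started, 23 had an unadjusted 3 h against 0 h p under 0.05 in the same direction, 32 had one in the opposite direction and 142 had none. For the 125 falling ones the numbers were 12, 21 and 92. Over all tested probes 7.75% were higher and 7.39% lower at 3 h than at 0 h at that threshold. The difference between the steps was also tested directly and was called for 99 probes in all (0.708% of those tested, 0.286% higher and 0.422% lower in the second step). Among them were 24 of the 197 rising and 19 of the 125 falling probes that started, the 17 that turned back, and Id4 alone among the 18 that continued. The counts for the last 2 classes largely follow from the rule. Called steps of opposite sign add up in this difference, and steps of the same sign partly cancel. The 99 became 46 and 51 without 0 h replicates 1 and 2, 14 and 7 without those of 3 h, 30 and 35 without those of 6 h, and 65 without either 48 h array.

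**Figure D1:**
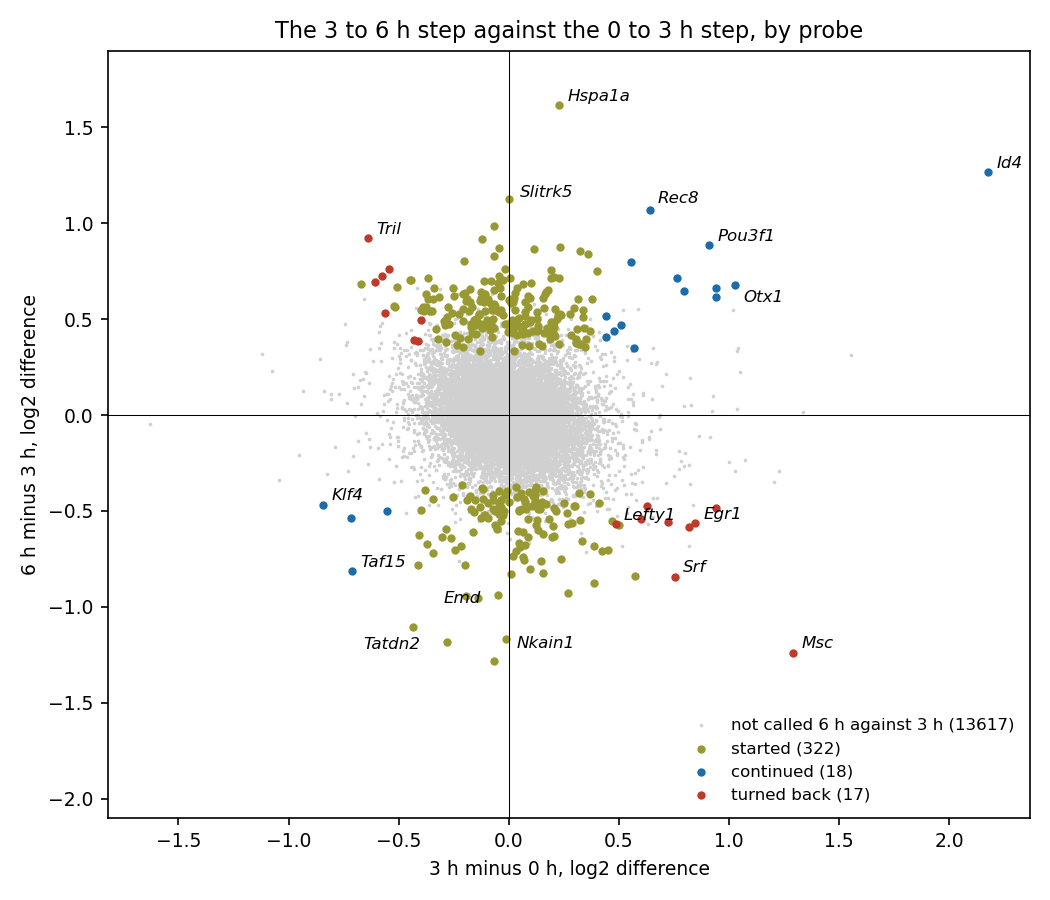
Each point is a tested probe, with its 0 to 3 h log2 difference on the horizontal axis and its 3 to 6 h log2 difference on the vertical axis. Coloured points are the 357 probes called at 6 h against 3 h, by class, and grey points the other 13617. The 322 that started lie above and below the horizontal zero line near the vertical one, the 18 that continued lie in the upper right and lower left, and the 17 that turned back lie in the upper left and lower right.

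The rises that continued were led by Id4, Rec8, Pou3f1, Spink2 and Otx1. Leaving out a 3 h array brought the 14 probes of this class to 9 (replicate 1) or 6 (replicate 2), and leaving out either 6 h array to 8. Id4, a helix-loop-helix protein that binds basic helix-loop-helix factors and keeps them off DNA, stood at 5.26 and 5.18 at 0 h, 7.42 and 7.38 at 3 h and 8.78 and 8.55 at 6 h. Its arrays did not overlap at any of these times, and it was 2.41-fold higher at 6 h than at 3 h (log2 difference 1.27, SE 0.10, adjusted p = 4.08e-05) after a first step of 2.18. The second step was the smaller of the pair (difference between steps -0.91, adjusted p = 0.0362). Pou3f1, a POU-domain factor of the early epiblast and of glial cells, was at 7.69 and 7.55 at 0 h, 8.57 and 8.49 at 3 h and 9.52 and 9.32 at 6 h. It had steps of nearly equal size, 0.91 and then 0.88 (adjusted p = 0.00147). Otx1, a homeodomain factor of the forebrain, was at 5.60 and 5.58 at 0 h, 6.65 and 6.58 at 3 h and 7.33 and 7.26 at 6 h, again with no overlap between neighbouring times. Its second step was 0.68 (adjusted p = 0.00147), and it then fell at 9 h against 6 h (log2 difference -0.66, adjusted p = 0.0108).

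Rec8, the meiotic form of the kleisin subunit of cohesin, was at 7.54 and 7.38 at 0 h, 8.12 and 8.08 at 3 h and 9.19 and 9.15 at 6 h, and the later step was 1.07 (SE 0.09, adjusted p = 5.23e-05). It stood at 9.55 and 9.57 at 9 h and 9.93 and 9.84 at 12 h, above both 6 h arrays. Spink2, a serine protease inhibitor, was at 5.12 and 5.50 at 3 h, detected on 1 of the 2 arrays, and at 6.14 and 6.08 at 6 h. It was not well above background at 0 h, so its level there is only bounded. The first step, which placed it in this class, was 0.56 (adjusted p = 0.0328). In the second step it rose by 0.80 (adjusted p = 0.00359). The authors' processed values gave this second step of Spink2 an adjusted p of 0.052. The other 7 named genes that continued were Plec, Sox21, Nrarp, Fzd10, Fzd7, Tsc22d3 and Fbxo25, with second steps of 0.41 to 0.66, beside 2 probes with no gene name here. Fzd7 and Fzd10 are Wnt receptors, Sox21 is a SoxB factor and Nrarp is a feedback inhibitor of Notch signalling.

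The falls that continued numbered 4. Their number was 0 without 3 h replicate 1, 1 without 0 h replicate 1, 3 h replicate 2 or either 6 h array, and 2 without 0 h replicate 2 or any array of 48 h or its control. Taf15, an RNA-binding protein of the FET family, was at 8.80 and 8.64 at 0 h, 7.91 and 8.10 at 3 h and 7.16 and 7.23 at 6 h, so that it was 1.76-fold lower at 6 h than at 3 h (log2 difference -0.81, SE 0.12, adjusted p = 0.00308). Nupr1, a stress-induced chromatin protein, was at 9.98 and 9.67 at 0 h, 9.19 and 9.35 at 3 h and 8.75 and 8.79 at 6 h and fell by 0.50 on the log2 scale in the second step (adjusted p = 0.0259). It lost its call when any 1 array of 3 h or 6 h was left out, and its adjusted p reached 0.202 over all alternatives. Klf4, a pluripotency factor, was at 7.02 and 7.09 at 0 h, 6.21 and 6.20 at 3 h and 5.83 and 5.65 at 6 h on the probe that was called (log2 difference -0.47, SE 0.11, adjusted p = 0.0423). That call was lost under 18 of 26 alternatives, and the other 2 Klf4 probes, called lower at 3 h, had second steps of -0.31 and -0.29 that were not called. BC051019 was not well above background at 6 h and was at least 1.37-fold lower there (adjusted p = 0.0407), a call lost under 16 of 26 alternatives.

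The rises that started after 3 h held the largest step of all. Hspa1a, the inducible 70 kDa heat shock protein, was at 4.93 and 5.47 at 0 h, 5.49 and 5.37 at 3 h and 7.10 and 6.99 at 6 h. Both 6 h arrays lay far above the 0 h and 3 h arrays, which overlapped each other, and the level was 3.06-fold higher at 6 h than at 3 h (log2 difference 1.62, SE 0.16, adjusted p = 0.000164). It remained called under every alternative run. At 9 h it was still at 7.29 and 7.01, and it was at 6.33 and 5.96 at 12 h and 5.68 and 5.66 at 24 h. Hspa1b, a neighbouring gene of nearly the same sequence, had no probe of its own here, so the signal cannot be assigned to one of them. The promoter of Hspa1a is shown because it holds a heat shock element, the kind of site that heat shock factors bind. The search was for GAANNTTC on both strands, with matches drawn in capitals, and the sequence is RefSeq's for GRCm38.p6, 250 bases before to 50 bases after the start on the minus strand at chr17:34972107-34972406.
Hspa1a promoter: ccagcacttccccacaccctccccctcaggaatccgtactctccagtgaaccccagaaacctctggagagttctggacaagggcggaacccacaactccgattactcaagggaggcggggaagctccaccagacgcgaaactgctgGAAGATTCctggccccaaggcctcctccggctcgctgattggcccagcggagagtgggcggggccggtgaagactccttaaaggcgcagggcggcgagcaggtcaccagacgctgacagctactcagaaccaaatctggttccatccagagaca
One match was found, from 104 to 97 bases before the start. The same letters occur in 7.86% of all 32851 promoters in that table, counted by gene in 9.04% of its 27025 genes, and in 15 of the 129 genes matched to it from the rises that started (11.6%).

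With 1 probe per gene, the one with the highest mean level, the next largest rises that started were those of Slitrk5, Zcchc18, Cldn3 and Sall2. By any probe, Rtn1 (0.92 on 1 of 3 called probes) stood ahead of Cldn3 and Sall2. Zcchc18 was at 6.39 and 6.33 at 0 h, 6.38 and 6.20 at 3 h and 7.28 and 7.27 at 6 h, and was 1.98-fold higher at 6 h than at 3 h (log2 difference 0.99, SE 0.11, adjusted p = 0.000457). The 0 h and 3 h arrays overlapped and both 6 h arrays were higher. Slitrk5, a neuronal membrane protein, was at 6.19 and 5.88 at 6 h and not well above background at 3 h, so it was at least 1.85-fold higher at 6 h (adjusted p = 0.00118). Cldn3, a tight junction claudin, was at 5.50 and 5.57 at 6 h and likewise not well above background at 3 h, which gave a rise of at least 1.3-fold (adjusted p = 0.00331). Sall2, a zinc finger factor of the spalt family, was at 6.45 and 6.47 at 6 h, against 5.91 and 5.27 at 3 h (log2 difference 0.87, SE 0.16, adjusted p = 0.0128). The Sall2 call was lost without 3 h replicate 2, 6 h replicate 1 or 6 h replicate 2, and its adjusted p reached 0.117 over all alternatives. Otx2, a homeodomain factor of the epiblast and the head, was at 9.45 and 9.43 at 0 h, 9.33 and 9.41 at 3 h and 9.92 and 9.92 at 6 h. It was 1.46-fold higher at 6 h than at 3 h (log2 difference 0.55, SE 0.09, adjusted p = 0.00463) and at 9.71 and 9.60 at 9 h and 9.59 and 9.66 at 12 h, below both 6 h arrays. The step differences of Hspa1a (1.39, adjusted p = 0.0376) and Zcchc18 (1.05, adjusted p = 0.0249) were called. Those of Slitrk5 (1.12, adjusted p = 0.0531), Cldn3 (0.65, 0.273), Sall2 (0.91, 0.218) and Otx2 (0.61, 0.0965) were not. For these genes a second step unlike the first is thus not shown. Slitrk5 and Cldn3 were not well above background at 0 h either. Of the 219 rising probes, 33 were not well above background at 3 h, so their level there is only bounded. Of all 13974 tested probes, 1353 were not well above background at 3 h.

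With 1 probe per gene chosen in the same way, the falls that started were led, among named genes, by Tatdn2, Nkain1, Emd and Cdkn2a. By any probe, Hsd17b11 (-0.93 on 1 of 3 called probes) stood ahead of Cdkn2a. Tatdn2, a member of the TatD nuclease family, was at 8.54 and 8.44 at 0 h, 8.22 and 8.20 at 3 h and 6.99 and 7.05 at 6 h. The 6 h arrays lay more than 1 log2 unit under the 3 h arrays, a level 2.27-fold lower (log2 difference -1.18, SE 0.09, adjusted p = 3.35e-05). Nkain1, a protein that interacts with the sodium pump, was at 6.70 and 6.77 at 0 h, 6.60 and 6.86 at 3 h and 5.71 and 5.40 at 6 h and was 2.25-fold lower at 6 h (log2 difference -1.17, SE 0.12, adjusted p = 0.000302). Emd encodes emerin, a protein of the inner nuclear membrane, and was at 9.94 and 9.82 at 0 h, 9.76 and 9.90 at 3 h and 8.89 and 8.90 at 6 h. Both Emd probes fell, with log2 differences of -0.94 and -0.95 (adjusted p = 0.00317 and 0.00147). Cdkn2a, which encodes the cell cycle inhibitor Ink4a and the p53 activator Arf, was at 7.66 and 7.48 at 0 h, 7.86 and 8.06 at 3 h and 7.04 and 7.13 at 6 h on its named probe. This probe was 1.83-fold lower at 6 h than at 3 h (log2 difference -0.87, SE 0.11, adjusted p = 0.00124), and the other called probe fell by 0.57 on the log2 scale (adjusted p = 0.00362). The step differences of Tatdn2 (-0.90, adjusted p = 0.0198), Nkain1 (-1.16, adjusted p = 0.0281) and this Cdkn2a probe (-1.26, adjusted p = 0.0134) were called, while that of Emd was -0.89 with an adjusted p of 0.136. The first steps of Tatdn2 (-0.28, adjusted p = 0.153) and this Cdkn2a probe (0.39, adjusted p = 0.106) were not called. Their unadjusted p in limma's test were 0.00764 and 0.00345. Tatdn2 may thus have begun to fall, and Cdkn2a to rise, before 3 h. The largest fall of all was that of a probe with no gene name here, ILMN_3093150 (log2 difference -1.28, SE 0.14, adjusted p = 0.000302).

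Of the 9 falls that turned back an early rise, the largest was that of Msc. This class had 4 probes without 3 h replicate 1 or 6 h replicate 1, 5 without 3 h replicate 2 and 3 without 6 h replicate 2. Msc, or musculin, a basic helix-loop-helix repressor, was at 9.08 and 9.00 at 0 h, 10.34 and 10.33 at 3 h and 9.12 and 9.07 at 6 h. It was thus 2.36-fold lower at 6 h than at 3 h (log2 difference -1.24, SE 0.11, adjusted p = 4.43e-05) and close to its 0 h values. It fell again at 9 h against 6 h (log2 difference -1.03, adjusted p = 0.000692), to a mean of 8.06. Srf, the serum response factor, was at 8.70 and 8.73 at 0 h, 9.42 and 9.51 at 3 h and 8.73 and 8.53 at 6 h on 1 of its 2 probes, with a fall of 1.79-fold (log2 difference -0.84, SE 0.09, adjusted p = 0.000341). The second Srf probe was not well above background at 6 h with a fall of at least 1.41-fold from 3 h (adjusted p = 0.0165; the call was lost under 5 of 25 alternatives). Its first step of 0.57 missed the threshold (adjusted p = 0.11), so the rule placed it among the falls that started. Egr1, an immediate early zinc finger factor, was at 9.46 and 9.39 at 0 h, 10.30 and 10.24 at 3 h and 9.73 and 9.69 at 6 h (log2 difference -0.56, SE 0.09, adjusted p = 0.00475). It was higher again at 9 h than at 6 h (log2 difference 0.60, adjusted p = 0.023).

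Lefty1, a secreted antagonist of Nodal, was at 8.71 and 8.59 at 0 h, 9.18 and 9.09 at 3 h and 8.57 and 8.58 at 6 h (log2 difference -0.57, SE 0.11, adjusted p = 0.0132). It was then higher at 9 h than at 6 h (log2 difference 1.17, adjusted p = 0.000413) and reached 11.19 and 11.09 at 24 h. Its 3 to 6 h call was lost when any 1 of the 3 h and 6 h arrays was left out (adjusted p up to 0.105 over all alternatives), and its close paralogue Lefty2 may share part of its signal. Fjx1, the homologue of the fly four-jointed gene, was at 5.36 and 5.07 at 0 h, 6.17 and 5.90 at 3 h and 5.38 and 5.52 at 6 h, and its call (adjusted p = 0.0334) was lost when any 1 of those 4 arrays was left out (adjusted p up to 0.305 over all alternatives). The Fjx1 call was also lost without background correction, in the authors' processed values, with no filter on dim probes and with the 0, 3 and 6 h arrays alone. The other 4 falls that turned back were those of Vasn, Wdfy2, Lor and Mob3a, with log2 differences of -0.56 to -0.47.

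The promoter of Srf is shown because SRF protein binds the CArG box and its own gene is known to hold such boxes. RefSeq's sequence for GRCm38.p6 runs from 250 bases before to 50 bases after the start, on the minus strand at chr17:46556113-46556412, with CArG boxes in capitals.
Srf promoter: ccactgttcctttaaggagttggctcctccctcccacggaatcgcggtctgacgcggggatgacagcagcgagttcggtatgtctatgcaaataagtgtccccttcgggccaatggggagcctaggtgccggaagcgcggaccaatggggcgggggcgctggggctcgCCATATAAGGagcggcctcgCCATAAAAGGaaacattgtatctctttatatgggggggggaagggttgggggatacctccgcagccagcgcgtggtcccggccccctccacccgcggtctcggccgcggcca
The CArG box reads the same way on both strands as a pattern, and 2 were found, from 82 to 73 and from 62 to 53 bases before the start. Such a box occurs in 1.63% of the 32851 promoters, counted by gene in 1.81% of 27025 genes. Srf was the 1 gene holding it among the 5 falls that turned back and were matched to the table. The box was searched for because Srf is known to hold it, so this count is not a result about the class.

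The rises that turned back an early fall numbered 8. Their number was 1 without either 0 h array, 4 without 3 h replicate 1, 2 without 3 h replicate 2 or 6 h replicate 1, and 5 without either 48 h array. Tril, a membrane protein that works with Toll-like receptors, was at 6.13 and 6.16 at 0 h, 5.49 and 5.52 at 3 h and 6.48 and 6.38 at 6 h, and was 1.9-fold higher at 6 h than at 3 h (log2 difference 0.92, SE 0.12, adjusted p = 0.00147). Sfi1, a centrin-binding centrosome protein, was at 6.86 and 6.82 at 0 h, 6.43 and 6.17 at 3 h and 7.09 and 7.03 at 6 h (adjusted p = 0.00424). Zfp148, a zinc finger factor, was at 6.65 and 6.68 at 0 h, 6.10 and 6.09 at 3 h and 6.94 and 6.70 at 6 h (adjusted p = 0.00415). In these 3 genes both 3 h arrays lay under all the 0 h and 6 h arrays. Map10, a microtubule-associated protein, rose by 0.69 (adjusted p = 0.0107), and 1 of 2 Zfp62 probes, not well above background at 3 h, was at least 1.1-fold higher at 6 h (adjusted p = 0.0107). The second Zfp62 probe had a step of -0.04 that was not called. Pgpep1, Slc38a2 and Coa4 made up the rest, with log2 differences of 0.39 to 0.50. Leaving out 3 h replicate 2 or 6 h replicate 1 ended the calls of Sfi1, Map10 and Zfp62. Zfp148 lost its call without 6 h replicate 1, and Zfp62 also without either of the other arrays. Over all alternatives the adjusted p of these 4 genes went up to 0.128.

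**Figure D2:**
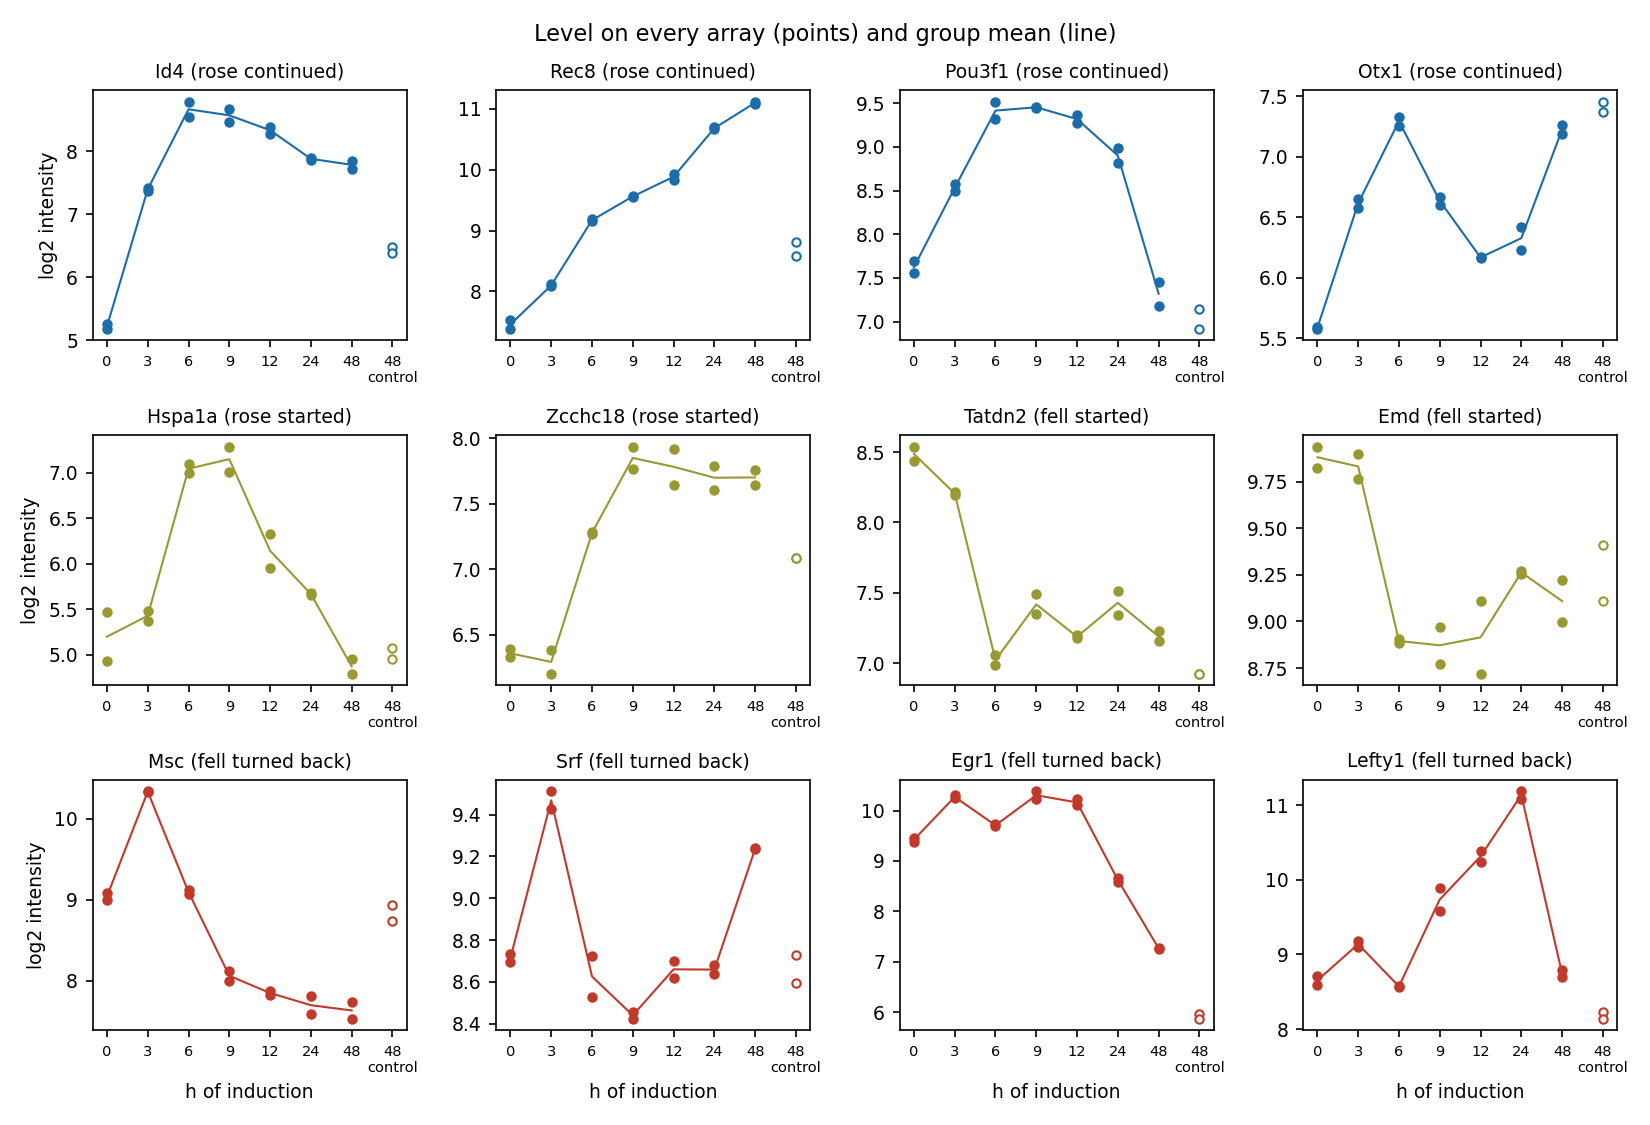
Normalized log2 intensity (vertical axis, its own range in each panel) by hours of induction (horizontal axis, not to scale) for 12 named genes. Points are single arrays, 2 per time, lines join the means of the induced times, and open points are the 48 h control. Id4, Rec8, Pou3f1 and Otx1 climb in both steps, and Hspa1a, Zcchc18 and Emd move after 3 h. Tatdn2 is a little lower at 3 h than at 0 h and falls further after 3 h. Msc, Srf, Egr1 and Lefty1 are higher at 3 h than at 0 h or 6 h, with Egr1 and Lefty1 high again at 9 h.

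Most probes of the pluripotency list had lower values at 6 h than at 3 h, although few passed the test. Of 37 tested probes for 20 listed genes, 3 fell, as did 0.988% of all tested probes. A negative difference was found for 31 (83.8%, against 49.9% of all tested probes), and the list median was -0.23, against 0.0008 for all probes. At an unadjusted p under 0.05, 16 were lower and 0 were higher, against 6.98% and 7.94% of all tested probes. Those called were Klf4, Esrrb and 1 of 3 Tbx3 probes. Esrrb, an orphan nuclear receptor of the network, was at 11.95 and 11.84 at 0 h, 11.68 and 11.60 at 3 h and 11.21 and 11.21 at 6 h (log2 difference -0.43, SE 0.09, adjusted p = 0.0282), and the Tbx3 probe was at 8.54 and 8.50 at 0 h, 8.15 and 8.13 at 3 h and 7.67 and 7.83 at 6 h (log2 difference -0.39, SE 0.09, adjusted p = 0.0348). Both were lower at 6 h on both arrays, and both calls were lost when any 1 of the 3 h and 6 h arrays was left out. Both were also lost with the 0, 3 and 6 h arrays alone, and that of Tbx3 under median scaling too. Their adjusted p went up to 0.156 (Esrrb) and 0.266 (Tbx3) over all alternatives. The first steps of Esrrb (-0.25, adjusted p = 0.212) and this Tbx3 probe (-0.38, adjusted p = 0.0531) were also downward but not called. Their step differences were -0.17 (adjusted p = 0.757) and -0.01 (adjusted p = 0.992). For neither gene is a second step unlike the first shown. Just outside the threshold at 6 h against 3 h stood Zfp42, a marker of the naive state, at -0.38 (adjusted p = 0.053), and 1 of 2 probes of Tdgf1, a Nodal coreceptor, at -0.50 (adjusted p = 0.055). Nanog was at -0.35 (adjusted p = 0.099), the 2 Pou5f1 probes at -0.26 and -0.27, and the 2 Sox2 probes at 0.08 and -0.22, none of them called. At 3 h against 0 h, where 0.572% of all tested probes were called lower, 5 probes of the list were lower. These were the probes of Fgf4 and Klf2 and the 3 Klf4 probes. At 6 h against 0 h, where 5.35% of all tested probes were called higher and 3.96% lower, 13 of the 37 were lower.

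Genes of the immediate early and growth factor response were called in different steps. Of 20 probes for 16 genes, 6 rose from 0 to 3 h (Egr1, Fos, Jun, Junb, Ier3 and Dusp1) and 3 fell from 3 to 6 h (Egr1, Spry4 and Etv5), with a list median of -0.15. Over all tested probes 0.88% rose in the first step and 0.988% fell in the second. Fos and Jun, the partners of the AP-1 dimer, had first steps of 1.04 and 1.34 and second steps of 0.33 and 0.01, neither called. Spry4, a feedback inhibitor of receptor tyrosine kinase signalling, was at 7.28 and 7.21 at 0 h, 7.30 and 7.23 at 3 h and 6.50 and 6.56 at 6 h (log2 difference -0.73, SE 0.14, adjusted p = 0.0143). Etv5, an Ets factor induced by Fgf signalling, was at 8.73 and 8.80 at 0 h, 8.73 and 8.72 at 3 h and 8.24 and 8.33 at 6 h (log2 difference -0.44, SE 0.10, adjusted p = 0.0359). For both genes the 0 h and 3 h arrays were close and both 6 h arrays lower, yet each call was lost when any 1 of the 3 h and 6 h arrays was left out. Both calls were also lost in the authors' processed values. That of Etv5 was lost under median scaling and with the 0, 3 and 6 h arrays alone as well. The step differences of Spry4 (-0.75, adjusted p = 0.239) and Etv5 (-0.40, adjusted p = 0.413) were not called. Over all alternatives the adjusted p went up to 0.117 for Spry4 and 0.232 for Etv5.

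In the list of Nodal and Bmp genes, 2 of 9 probes fell, those of Lefty1 and Nodal, and the median was -0.17. Of all tested probes 0.988% fell. Nodal, the ligand, was at 8.50 and 8.51 at 0 h, 8.44 and 8.37 at 3 h and 7.85 and 8.05 at 6 h (log2 difference -0.46, SE 0.10, adjusted p = 0.0337), a call lost when any 1 of the 3 h and 6 h arrays was left out (adjusted p up to 0.269 over all alternatives). The Nodal call was also lost under median scaling, in the authors' processed values and with the 0, 3 and 6 h arrays alone. The Bmp targets Id1, Id2 and Id3, relatives of Id4, had second steps of -0.25, -0.17 and 0.38, none called, and Id1 had a first step of 1.00 that was called. Among 24 probes of p53 targets 1 fell, that of Phlda3. It was at 9.88 and 10.03 at 0 h, 10.22 and 10.43 at 3 h and 9.92 and 9.91 at 6 h (log2 difference -0.41, SE 0.09, adjusted p = 0.0298). Its first step of 0.37 was not called (adjusted p = 0.0635), but its step difference was (-0.78, adjusted p = 0.0379). At 6 h it was close to its 0 h level (log2 difference -0.04, adjusted p = 0.829). The second Phlda3 probe was called higher at 3 h than at 0 h (0.52, adjusted p = 0.019). Its second step was -0.37 (adjusted p = 0.084). The list median was -0.07, and 8 of the 24 were lower at 6 h against 0 h, where 3.96% of all tested probes were. Neither Phlda3 probe was among them. The Phlda3 call was lost without 3 h replicate 2 and without either 6 h array, and its adjusted p went up to 0.252 over all alternatives.

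From 3 to 6 h, 2.55% of all tested probes were called, 1.57% higher and 0.988% lower. Of the 9 heat shock probes Hspa1a alone was called, and the other 8 had differences from -0.14 to 0.25, the highest in Dnajb1. The median of that list was 0.003 and turned negative under median scaling (-0.05) and cyclic loess (-0.01), while the medians of the other lists kept their sign under those scalings and in the authors' processed values. In the early lineage list 1 of 12 probes rose (all tested probes: 1.57%), that of Otx2, with a median of 0.07. The unfolded protein and amino acid stress list had its calls before 3 h. Of its 19 probes 6 fell from 0 to 3 h (all tested probes: 0.572%), with Chac1 at -1.63 and Atf4 at -0.69. From 3 to 6 h limma called 0, and the median was -0.04. At an unadjusted p under 0.05, 3 were higher and 1 lower in that step, against 7.94% and 6.98% of all tested probes. E2F targets and S phase genes, the group under retinoblastoma control, had 0 of 37 probes called by limma, 1 higher and 5 lower at an unadjusted p under 0.05 (all tested probes: 7.94% higher, 6.98% lower), and a median of -0.02. The interferon list (6 probes, 1 higher at an unadjusted p under 0.05, median 0.10) and the Wnt target list (3 probes, 0 at an unadjusted p under 0.05, median 0.12) also had 0 calls by limma. In the fibroblast list 1 of 12 probes fell (all tested probes: 0.988%), and the list median was -0.14. That probe was 1 of 3 for Ccn1, a matrix-associated immediate early protein. It was at 6.39 and 6.26 at 6 h, against 6.70 and 6.88 at 3 h (log2 difference -0.46, SE 0.10, adjusted p = 0.0268). The Ccn1 call was lost without 3 h replicate 2 and without either 6 h array (adjusted p up to 0.216 over all alternatives).

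**Figure D3:**
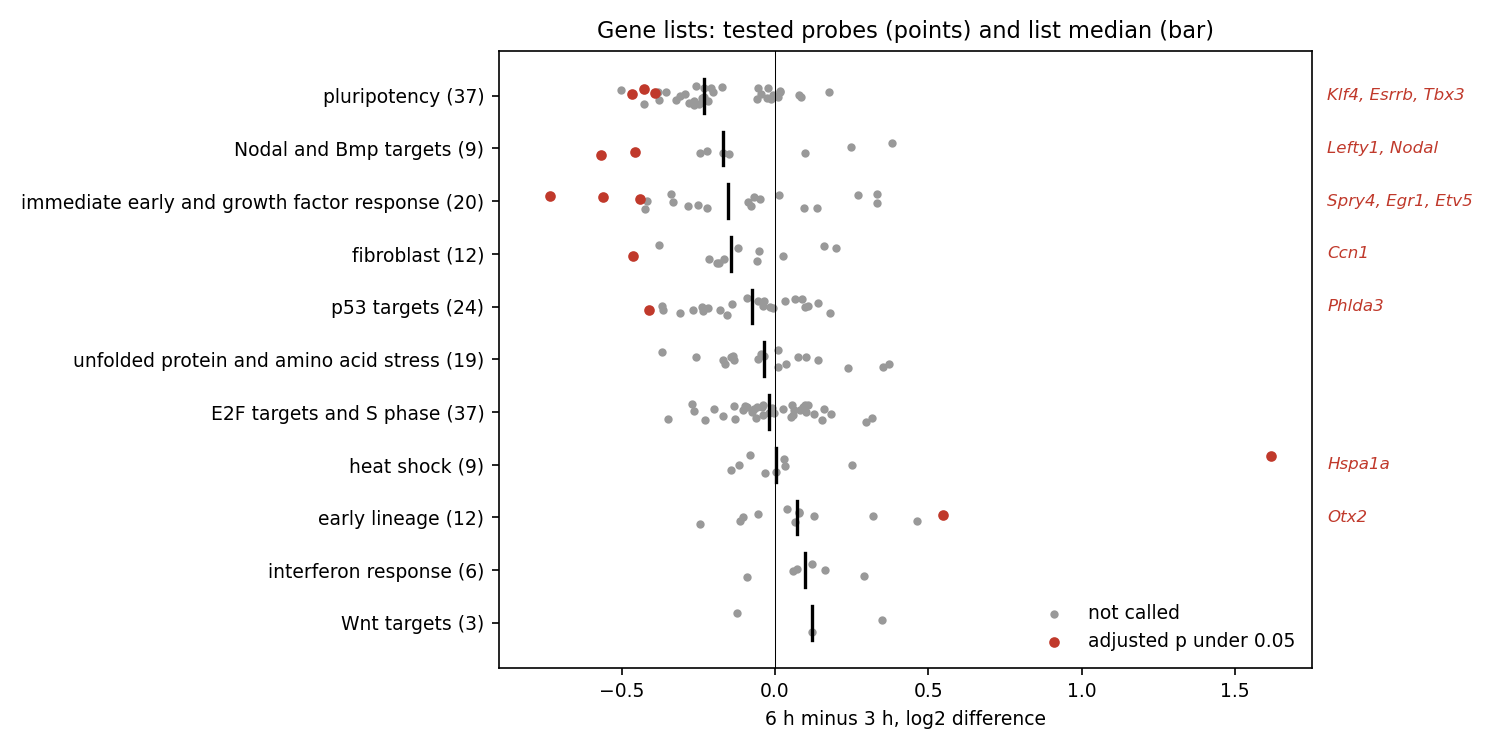
The log2 difference of 6 h minus 3 h (horizontal axis) for every tested probe of 11 gene lists, with the number of probes in brackets. Points are probes, red where the adjusted p was under 0.05 and named at the right, and black bars are list medians. The pluripotency list lies mostly left of 0, at a median of -0.23, and Hspa1a stands alone at 1.62.

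Few probes were called just after 6 h. At 9 h against 6 h there were 7 (0.0501% of those tested, 0.0358% lower), and 4 of them had moved from 3 to 6 h, namely Msc, Otx1, Lefty1 and Egr1. The 9 h and 0 h arrays took no part in the 6 h against 3 h comparison. At 9 h against 0 h, 135 of the 219 rising probes were called higher (61.6%, against 4.84% of all tested probes, 8.87% being called in either direction), and 87 of the 138 falling probes were called lower (63%, against 4.03%). The exceptions with an opposite call were Lefty1 and Egr1. At 12 h against 0 h the numbers were 142 of 219 (64.8%, against 7.16%) and 96 of 138 (69.6%, against 6.09%). All comparisons use 1 fitted spread per probe, which can raise such overlaps.

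By class, the 197 rising probes that started had median shifts from the 0 h mean of 0.00 and -0.06 on the 3 h arrays, 0.53 and 0.50 on the 6 h arrays, 0.47 and 0.50 on the 9 h arrays and 0.50 and 0.43 on the 12 h arrays. The 125 falling ones had medians of -0.01 and 0.07 at 3 h, -0.52 and -0.49 at 6 h, -0.47 and -0.48 at 9 h and -0.55 and -0.50 at 12 h. In both classes the values at 3 and 6 h largely follow from the rule, which asks for no earlier call and a later one. At 48 h the median shifts were 0.53 and 0.43 for the rising and -0.51 and -0.54 for the falling probes that started. On the 48 h control arrays they were 0.45 and 0.33 for the rising and -0.41 and -0.43 for the falling ones. Against 0 h, 109 of the 197 were higher in the control and 40 lower (25.7% and 27.2% of all tested probes), and 76 of the 125 were lower and 26 higher. The control thus lay on the same side of 0 h as the 6 h arrays for most of these probes. No control at 3 or 6 h was analysed here, so E1A and any other difference between the 3 h and the later arrays cannot be told apart. The labels and headers used here name no slide or batch.

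The 14 rising probes that continued had median shifts of 1.49 and 1.40 at 6 h, 1.38 and 1.36 at 12 h and 0.99 and 1.09 at 48 h, with 0.58 and 0.62 in the 48 h control. The 4 falling ones had -1.21 and -1.35 at 6 h, -1.41 and -1.20 at 12 h and -0.55 and -0.58 at 48 h, with -0.12 and -0.03 in the 48 h control. These control medians lie between probes on opposite sides of 0 h. In the control against 0 h, Taf15 (-1.10) and BC051019 (-1.17) were called lower, and Klf4 (0.94) and Nupr1 (2.59) higher. At 48 h against 0 h, Nupr1 was also called higher, while Taf15, BC051019 and Klf4 were called lower. For both classes the size of the median shifts at 6 h follows from the rule, which asks for calls of the same sign in both steps. At 48 h against the 48 h control, which shares no array with 6 h against 3 h, 56 of the 219 rising probes were higher and 34 lower (8.85% and 9.05% of all tested probes), and 37 of the 138 falling probes were lower and 20 higher. Among the 9 falls that turned back, 6 were higher at 48 h than in the control, among them Srf (0.57, adjusted p = 0.000515), Egr1 (1.35, adjusted p = 1.59e-07) and Lefty1 (0.56, adjusted p = 0.00227), while Msc was lower (-1.20, adjusted p = 2.17e-06).

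**Figure D4:**
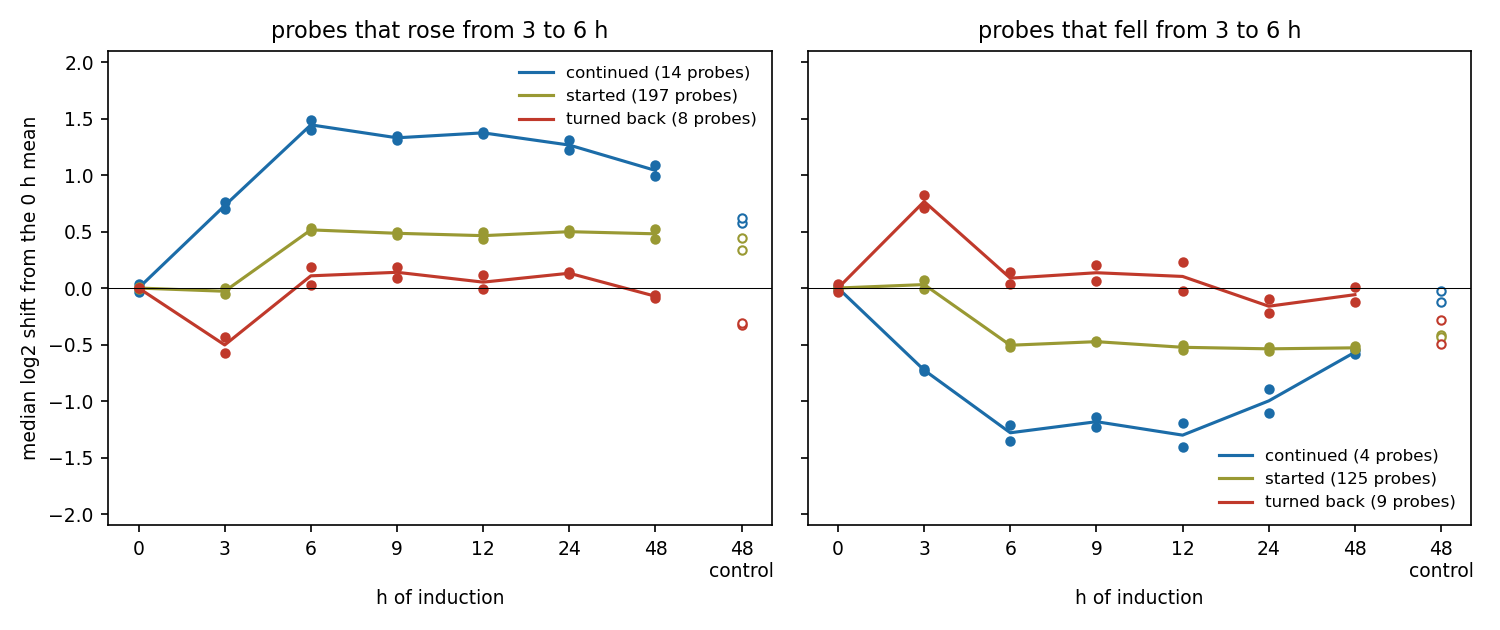
Median log2 shift from the 0 h mean on each array (points, vertical axis) by hours of induction (horizontal axis, not to scale) for the probes that rose (left) and fell (right) from 3 to 6 h, by class, with lines through the group means and open points for the 48 h control. The probes that started sit near 0 at 3 h, near 0.5 or -0.5 from 6 h on, and on the same side in the 48 h control. Their places at 3 and 6 h largely follow from the rule for the class.

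The median intensity of an array ranged over 122 to 136, and an array detected 12124 to 12639 of its 25697 probes. The standard error of a 6 h minus 3 h difference was 0.12 at the median probe, and the number of arrays limits this precision. All 8 stem cell markers had a probe detected on all arrays, and their summed raw intensity was 53157 to 55504 at 6 h, against 57529 to 62036 at 3 h. Of 8 fibroblast markers, Thy1 and Vim were detected on all arrays and 5 on none, with sums of 2092 to 2190 at 6 h, against 1985 to 1989 at 3 h. These sums hold the background of every probe, are not normalized and weigh bright probes most. The brightest stem cell probes, of Dppa5a, had normalized 6 h minus 3 h log2 differences of -0.05 and -0.01. Vim, the brightest fibroblast marker, had 0.20. The sums thus do not measure the amount of either cell type. The part of other cells in the results was not tested, and fewer cells of a type cannot be told apart from less RNA per cell.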

How the data were processed

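The authors deposited a table of 25697 probes that gives each of 16 arrays an intensity column and a detection p-value column. The authors deposited the intensities as non-normalized values, and they are linear. The deposited detection p-values run in steps of 1 in 798. Per the submitters' processing notes, BeadStudio 3.2, lumi and RMA were used, with no role given. The authors' processed values are on a log2-like scale with a median of 4.13 on every array and kept the rank order of the raw values (rank correlation 1). They had been quantile normalized, as far as the values show, and served as an alternative. All per-sample columns were matched to samples.

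Background correction by the normal-exponential model from detection p-values, with an offset of 16, quantile normalization and log2 were done with neqc in limma 3.58.1 (R 4.3.3). Dim probes have their differences shrunk by the offset. Testing was limited to the 13974 probes detected (p under 0.05) on at least 2 of 16 arrays, leaving out 11723. A single model with 8 group means was fitted (8 residual and 6.30 prior degrees of freedom), and p-values were adjusted over all tested probes within each contrast. The procedure was tested on simulated data. A probe detected on neither array of a time is called not well above background there, and its fold is a bound, set against the higher of its own level and the lowest level of any detected probe.

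Genes come from GEO's platform annotation, which can be old, with symbols checked through Entrez identifiers. It gave 23978 probes 1 gene, 0 several, and 1719 none here. Named genes are, for each of the 6 classes, the 5 with the largest differences among called probes whose arrays did not overlap (1 probe per gene, the one with the highest mean), and all called members of the 11 gene lists. Other genes were chosen after their values were seen. Of the listed genes, 12 had no probe here. The classes, lists and tests were chosen with earlier results of these data known. Alternatives were median scaling, cyclic loess, no background correction, the authors' values, other filters, offset, arrays, moderation and thresholds, a replicate block and leaving out each array.

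Promoter sequences are RefSeq's for GRCm38.p6.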

Additional observations from a re-analysis of the deposited data

How the results depend on the processing

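Leaving out each of the 16 arrays in turn gave 71 to 370 changed probes in place of 357 (38 to 224 higher, 31 to 146 lower, 51.4% to 62.1% of them higher in place of 61.3%). It gave 6 to 15 rises that continued in place of 14, 30 to 203 that started in place of 197, 1 to 8 that turned back in place of 8, 0 to 4 falls that continued in place of 4, 26 to 129 that started in place of 125 and 3 to 13 that turned back in place of 9. Step differences numbered 7 to 98 in place of 99, and members called at 9 h against 0 h in their own direction 52 to 233 in place of 222. An arm left with 1 array was assumed to vary like the others. Median scaling gave 9 rises that continued, and cyclic loess 2 falls that continued. Without background correction 25 rises continued and 13 turned back, and 11 falls continued and 20 turned back. An offset of 50 gave 22 and 13 such rises and 11 and 18 such falls, and intensity trend with robust moderation 23 rises that continued and 14 falls that turned back. The stricter filter gave 8 falls that continued. In the authors' processed values 84 probes fell, with 2, 78 and 4 falls that continued, started and turned back, 5 rises that turned back and 55 step differences, and 238 of their calls were among the 357. With the 0, 3 and 6 h arrays alone, and so fewer degrees of freedom, 115 probes changed (68 higher, 47 lower). Of these, 8, 58 and 2 were rises and 1, 42 and 4 falls that continued, started and turned back, beside 9 step differences. At an adjusted p under 0.01, 84 changed (52 higher, 32 lower), in classes of 8, 44 and 0 rises and 1, 28 and 3 falls, with 8 step differences and 58 calls at 9 h. With a log2 difference of at least 1, 9 changed (4 higher, 5 lower, 44.4% higher), in classes of 1, 3 and 0 rises and 0, 4 and 1 falls, with 55 step differences and 5 calls at 9 h. For the other settings the cause was not tested.

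A replicate block, that is the replicate number as a term, gave 466 changed probes (282 higher, 184 lower). Pairing was not assumed, since the labels state no pairing. Same-numbered arrays deviated from their group means with r of -0.07 to 0.29 over 28 pairs of groups (0.06 for 6 h and 3 h). The r was over 0.1 in 16 of the 28. In the data alone, 14 of 16 arrays had their best correlation with a same-numbered array, a hint that the design does not back.

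The 37 named probes kept their sign in all 960 alternative values. Of these values 114 were not past the threshold, 75 of them on leaving out an array, and 18 named probes passed it under every alternative. Dim probes limit what can be said, since 33 of 219 rising probes at 3 h and 12 of 138 falling ones at 6 h were not well above background. Of all 13974 tested probes this held for 1353 at 3 h and 1074 at 6 h.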

Other observations

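Some genes outside the naming rule, chosen after their values were seen, were measured by several probes that moved together from 3 to 6 h. All 4 called probes of Tubb2b, a beta tubulin of neural cells, fell, with log2 differences of -0.61, -0.54, -0.50 and -0.45. The 3 called probes of Hsd17b11, a hydroxysteroid dehydrogenase, fell by 0.93, 0.82 and 0.76 on the log2 scale, and those of Jam2, a junctional adhesion molecule, by 0.78, 0.70 and 0.63. Both called probes of Lmnb1, which encodes lamin B1, fell, with -0.68 and -0.38. The 3 called probes of Rtn1, a reticulon of neuroendocrine cells, rose by 0.92, 0.70 and 0.66. None of these probes had a 0 to 3 h call. Those of Jam2 were nonetheless lower at 3 h than at 0 h (-0.41, -0.41 and -0.24), as were those of Lmnb1 (-0.22 and -0.12). The first steps of the Tubb2b, Hsd17b11 and Rtn1 probes had the opposite sign to their second steps. Probes of these genes that were not called are not given here. Srrm2, which encodes a splicing factor, was the 1 gene called in both directions, with 0.76 on one probe (adjusted p = 0.00552) and -0.48 on another (adjusted p = 0.0348).

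Among single-probe rises that started, also chosen after their values were seen, were the homeobox genes Hoxb7 (0.83), Hoxa5 (0.70), Irx3 (0.61), Meis1 (0.53), Meis2 (0.52) and Hoxd8 (0.44). The cyclin genes Ccnd2 (0.60) and Ccnd1 (0.42) rose, as did Cdkn1c (0.71), an inhibitor of cyclin-dependent kinases. The signalling ligand gene Wnt6 rose (0.69), while those of Wnt3a (-0.47) and Inhba (-0.50), an activin subunit, fell. How many other members of these families were measured and did not move was not counted, so these are values and not a pattern of the families.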
